A study of Mus musculus with 6 samples.

Results

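Tumour necrosis factor (TNF), its receptors and the NF-kB pathway that relays and ends its signal were followed through 10 genes in mouse liver, namely Tnf, Tnfrsf1a, Tnfrsf1b, Tnfrsf12a, Rela, Relb, Nfkb1, Nfkb2, Nfkbia and Tnfaip3. The genes were taken by symbol, from a list drawn up with earlier results of these data known. All 10 were found among the 24346 gene rows, and all 10 were among the 11493 genes tested, those with a mean level of 0.5 FPKM or more.

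The livers came from male C57BL/6J mice (labelled C57BL/6) of a diet model of steatohepatitis. From the age of 8 weeks the mice were fed CDAHFD, a high-fat diet that lacks choline and supplies protein as amino acids, for 6 weeks. They then received 1 intravenous dose of an adeno-associated virus of serotype 8 and normal chow, and the liver was taken 2 weeks later. Control mice (control 1 to 3, labelled Control) received LDTS-LIR mut, which joins the lipid droplet-targeting sequence of perilipin 1 (LDTS) to an LC3-interacting region that no longer binds LC3. Lipophagy mice (lipophagy 1 to 3, labelled Lipophagy) received LDTS-eLIR, whose engineered region draws autophagosomes to lipid droplets. Both constructs were driven by the thyroxine-binding globulin promoter, which is active in hepatocytes, so other liver cells were not meant to express them. Both groups carried the LDTS, which is mildly lipogenic by itself, and uninjected or chow-fed mice were not analysed here. There were 3 livers in each group. The p-values measure the spread between these 3 livers.

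TNF is made mainly by macrophages as a membrane protein and is cut from the cell surface. It binds TNF receptor 1 (Tnfrsf1a), present on most cells, and TNF receptor 2 (Tnfrsf1b), found mostly on leukocytes and endothelium. Receptor engagement activates the IkB kinases, which mark the inhibitor IkB-alpha (Nfkbia) for degradation and release NF-kB dimers such as RelA with p50 into the nucleus. In the slower non-canonical route the precursor of p52 (Nfkb2) is processed and acts with RelB, and the receptor Fn14 (Tnfrsf12a), bound by TWEAK (Tnfsf12), is one of its triggers. NF-kB then induces its own brakes, among them Nfkbia and the ubiquitin-editing enzyme A20 (Tnfaip3), so that these transcripts are also used as a readout of the pathway.

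Whether these genes carry the letters that NF-kB binds was read from RefSeq promoter windows of GRCm38.p6, the build of the files, which run from 250 bases before to 50 bases after each transcription start. The NF-kB (kappa-B) consensus of 10 bases was searched on both strands, and overlapping matches were kept. Windows were matched for 8 of the 10 genes, all but Nfkb1 and Relb, and 3 of the 8 held the consensus, namely Nfkbia, Nfkb2 and Tnfaip3. It was held by 8.46% of all 32851 windows and by 9.55% of the 27025 genes with a window. A match is a description of letters and not of a bound site, and a window without one says nothing of sites elsewhere. The 250 bases before the Nfkbia start (chr12:55492648-55492897, minus strand) are shown whole because Nfkbia is the textbook feedback gene, and GENCODE M21 places no exon or gene there. Capitals mark the match, which begins 29 bases before the start.
Nfkbia: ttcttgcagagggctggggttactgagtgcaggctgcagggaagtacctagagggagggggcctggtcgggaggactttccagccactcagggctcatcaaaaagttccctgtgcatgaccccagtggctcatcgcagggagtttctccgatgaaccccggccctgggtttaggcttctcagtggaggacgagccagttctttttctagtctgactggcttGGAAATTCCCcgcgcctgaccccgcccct

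The matches of Tnfaip3 and those of the first of 3 Nfkb2 windows are shown in stretches of 30 bases, again with the consensus in capitals. Those of Tnfaip3 begin 125 and 12 bases before its start (chr10:19015516-19015545 and chr10:19015411-19015440, minus strand). The other Nfkb2 windows, which belong to later start sites, also hold matches and are not shown. The first Nfkb2 window holds overlapping matches 39 and 38 bases before the start and another at 11 bases (chr19:46304689-46304718 and chr19:46304707-46304736, plus strand). In GENCODE M21 the Nfkb2 stretches also lie in an exon of other transcripts of Nfkb2 and in an exon of another gene, AC114539.1. Some of the 250 bases before Tnfaip3 likewise lie in an exon of transcripts of Tnfaip3. All 3 genes had overlapping groups and none passed the test. Their log2 differences, lipophagy minus control, were 0.16 ± 0.11 (SE) for Nfkbia, -0.30 ± 0.13 for Nfkb2 and -0.24 ± 0.12 for Tnfaip3.
Tnfaip3 at 125 bases: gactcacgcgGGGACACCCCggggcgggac
Tnfaip3 at 12 bases: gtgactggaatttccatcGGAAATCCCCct
Nfkb2 at 39 bases: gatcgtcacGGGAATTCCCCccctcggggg
Nfkb2 at 11 bases: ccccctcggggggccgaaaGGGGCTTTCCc

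Expression was measured by sequencing of poly(A) RNA and deposited as FPKM, fragments scaled to transcript length and to all mapped fragments, a level per length that can be compared between genes. From the steps that 1 fragment makes in low genes, the depth was estimated at 23.7 to 33.8 M fragments (M, mega) in control livers and 22.8 to 24.7 M in lipophagy livers. With no fragment length taken off, the estimates ran from 21.3 to 31.3 M, and with 300 bases taken off from 24.6 to 36.7 M. Rank correlations between livers across the tested genes were 0.980 to 0.991, and no pair of livers held identical values. Hepatocyte markers had a summed level of 69976 to 78977 FPKM in control and 84955 to 109050 FPKM in lipophagy livers. Alb alone was at 35470 to 39159 FPKM in control and 45009 to 64089 FPKM in lipophagy livers. The sum over all genes also differed, at 622696 to 681138 FPKM in control and 709993 to 782392 FPKM in lipophagy livers. Red cell markers were high in lipophagy 2, at 483 FPKM against 109 to 169 FPKM in the other livers.

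Tnf, Tnfrsf12a, Rela and Relb had all 3 lipophagy livers below all 3 control livers, while the groups of Tnfrsf1a, Tnfrsf1b, Nfkb1, Nfkb2, Nfkbia and Tnfaip3 overlapped. On the mean FPKM scale, lipophagy livers held 57.6% of the control level of Tnf, 63.4% of Tnfrsf12a, 64.7% of Relb and 82.4% of Rela, against 96.5% of Tnfrsf1a, 110.2% of Tnfrsf1b and 112.1% of Nfkbia. None of the 10 passed an adjusted p of 0.05 (limma on log2(FPKM + 1), Benjamini-Hochberg over all tested genes), a threshold that 3 of 11493 genes or 0.0261% passed. At an unadjusted p below 0.05, 5 of 10 were lower (Tnfrsf12a, Relb, Rela, Tnf and Nfkb2), where 7.97% of all tested genes were, and 0 of 10 were higher, where 11.5% were. Tnf passed the filter only through its control level, since its lipophagy mean is below 0.5 FPKM, so its place in these counts is no support for a lower level. The groups were apart with lipophagy lower for 4 of 10 genes, against 10.8% of all tested genes, and apart with lipophagy higher for 0 of 10, against 15.4%. The median log2 change was -0.25 over the 10 genes, 8 of them lower, and 0.020 over all tested genes. Without control 3 the 5 became 2 (Relb and Tnfrsf12a), without lipophagy 2, the liver with high red cell markers, they became 4, and with quantile normalization they became 3 (Rela, Relb and Tnfrsf12a).

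**Figure D1:**
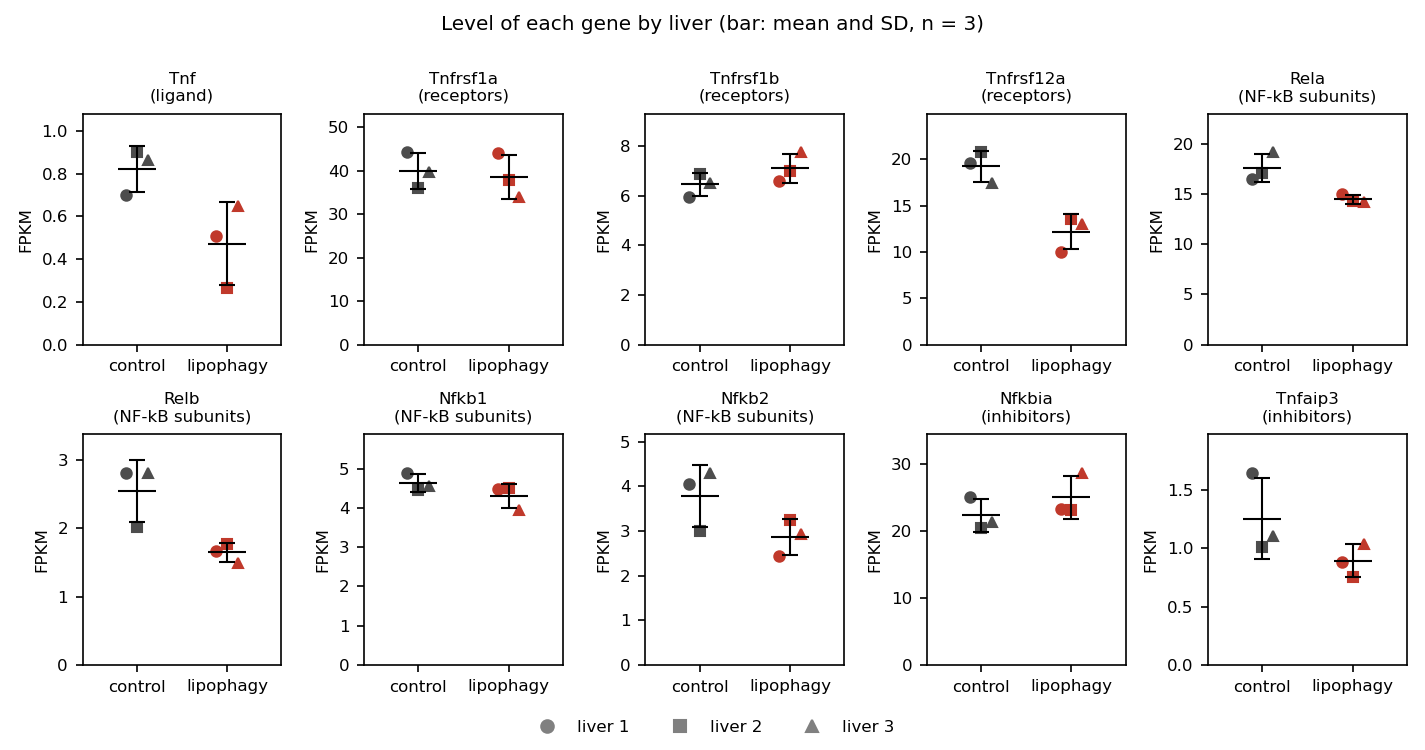
Level of each of the 10 genes in FPKM (vertical axes from 0, one scale per gene) in the 3 control and 3 lipophagy livers, with a marker for each liver and bars for mean and SD. Tnf, Tnfrsf12a, Rela and Relb show every lipophagy liver below every control liver, and the groups of the other 6 genes overlap.

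Among themselves the genes spanned a wide range of levels per length. Tnfrsf1a was the most abundant at a mean of 39.3 FPKM over the 6 livers, followed by Nfkbia at 23.7, Rela at 16.0, Tnfrsf12a at 15.7 and Tnfrsf1b at 6.79 FPKM. Nfkb1 (4.48 FPKM), Nfkb2 (3.33), Relb (2.10), Tnfaip3 (1.07) and Tnf (0.647) followed. Rela lay above Tnfrsf12a in only 4 of 6 livers. For the neighbours from Nfkb1 down to Tnf the ranges over livers overlapped from one gene to the next, although within each of the 6 livers the order held. The cytokine was thus the lowest of the 10, and its type 1 receptor the highest.

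Tnf (chr17:35199367-35202007), the ligand, was at 0.700, 0.900 and 0.865 FPKM in control 1, 2 and 3 and at 0.507, 0.263 and 0.648 FPKM in lipophagy 1, 2 and 3. Every lipophagy liver was below every control liver, and lipophagy 2 was the lowest of all. The mean was 0.821 ± 0.106 FPKM in control and 0.473 ± 0.195 FPKM in lipophagy livers (SD, n = 3). On the log2(FPKM + 1) scale, which understates the change of so low a gene, the difference was -0.31 ± 0.11 (SE, 95% interval -0.57 to -0.058, adjusted p = 0.204). Without lipophagy 2 it was -0.21, and Tnf no longer reached an unadjusted p below 0.05 there, without control 2 or control 3, or with quantile normalization. The values rest on few molecules. At the estimated depth they correspond to 27.7, 31.7 and 43.5 fragments in control and 17.8, 8.94 and 23.8 in lipophagy livers, a counting error of 15.2% to 33.5% for 1 liver. In whole liver, fewer cells of a type and less RNA per cell cannot be told apart, here and below.

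Of 18 TNF superfamily ligands listed, 5 passed the filter of a mean of 0.5 FPKM, and 4 of these were lower and 1 higher, with a median log2 change of -0.046 (-0.0088 without lipophagy 3 to -0.11 with a pseudocount of 0.1). Tnf was the only one of the 5 with groups apart. Ltb, encoding lymphotoxin beta, had the highest difference, at 0.062 with overlapping groups. Tnfsf12, encoding TWEAK, the ligand of Fn14, was at 10.4, 10.2 and 12.2 FPKM in control and 11.3, 10.4 and 10.7 FPKM in lipophagy livers, so the groups overlapped and the log2 difference was -0.016 (SE 0.089). The 5 genes that cut TNF from the membrane or govern its cutting were all lower, 4 with groups apart and 3 at an unadjusted p below 0.05, with a median of -0.26. Over all tested genes 10.8% were apart and lower, and 7.97% were lower at that p. The 3 included Timp3 (-0.27), which encodes a metalloproteinase inhibitor, so the 5 do not all act in one direction. The 3 became 5 without lipophagy 3 and 2 without control 1, control 3 or lipophagy 1. Rhbdf2, encoding the iRhom2 partner of the TNF-cleaving protease, was at 3.41, 3.77 and 3.98 FPKM in control and 2.18, 2.27 and 3.19 FPKM in lipophagy livers (log2 difference -0.42 ± 0.12, adjusted p = 0.158). The protease gene itself, Adam17, differed least of the 5 (-0.13, adjusted p = 0.416), with overlapping groups.

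Tnfrsf12a (chr17:23675445-23677449), encoding Fn14, was at 19.6, 20.7 and 17.5 FPKM in control and at 10.045, 13.6 and 12.97 FPKM in lipophagy livers. The groups were well separated, and lipophagy 1 was the lowest liver. Its mean went from 19.3 ± 1.66 to 12.2 ± 1.89 FPKM (SD, n = 3), a log2 difference of -0.63 ± 0.12 (SE, 95% interval -0.90 to -0.35, adjusted p = 0.119). With a pseudocount of 1 this was the largest difference among the 10 genes and the 13 receptors tested. The order depends on the scale, since with a pseudocount of 0.1 Tnf was at -0.74 and Tnfrsf12a at -0.66. On mean FPKM, Tnf was at 57.6% of control and the receptors Tnfrsf10b and Eda2r were at 43.6% and 46.5%, below the 63.4% of Tnfrsf12a. Over the alternatives run its adjusted p lay between 0.0811 and 0.336.

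Both receptors of TNF itself gave overlapping groups. Tnfrsf1a (chr6:125349723-125362483) was at 44.2, 36.0 and 39.7 FPKM in control and 44.0, 37.8 and 33.9 FPKM in lipophagy livers, with a log2 difference of -0.053 and a 95% interval of -0.32 to 0.22 (adjusted p = 0.824). Control 1 and lipophagy 1 were the highest livers, at nearly the same level. Leaving out control 1 or lipophagy 3 turned the sign, to 0.020 or 0.034. Tnfrsf1b (chr4:145212368-145246870) was at 5.97, 6.90 and 6.53 FPKM in control and 6.60, 7.02 and 7.76 FPKM in lipophagy livers. Lipophagy 3 was the highest and control 1 the lowest, and the log2 difference was 0.12 with a 95% interval of -0.084 to 0.33 (adjusted p = 0.463). It was 0.066 without lipophagy 3 and 0.073 without control 1. These intervals leave room for differences in either direction.

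The 13 tested of 28 receptors of the superfamily divided into 9 lower and 4 higher, with a median of -0.070 that ran from -0.17 without control 3 to -0.040 without lipophagy 3. At an unadjusted p below 0.05, 4 were lower and 1 was higher, where 7.97% and 11.5% of all tested genes were. The lower ones besides Tnfrsf12a were Eda2r (-0.50), Tnfrsf10b (-0.43), the TRAIL death receptor, and Tnfrsf19 (-0.34), named after their values were seen. Tnfrsf10b passed the filter only through its control level, with means of 0.857 FPKM in control and 0.374 FPKM in lipophagy livers. Its place in these counts is thus no support for a lower level. The higher one was Ltbr, the lymphotoxin beta receptor, at 47.9, 48.7 and 48.6 FPKM in control and 56.2, 56.5 and 51.8 FPKM in lipophagy livers (log2 difference 0.17 ± 0.074, adjusted p = 0.249). Ltbr groups were apart, with lipophagy higher, but no receptor was higher at an unadjusted p below 0.05 with quantile normalization, with the replicate number as a block, or without control 1, control 2, control 3 or lipophagy 1.

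**Figure D2:**
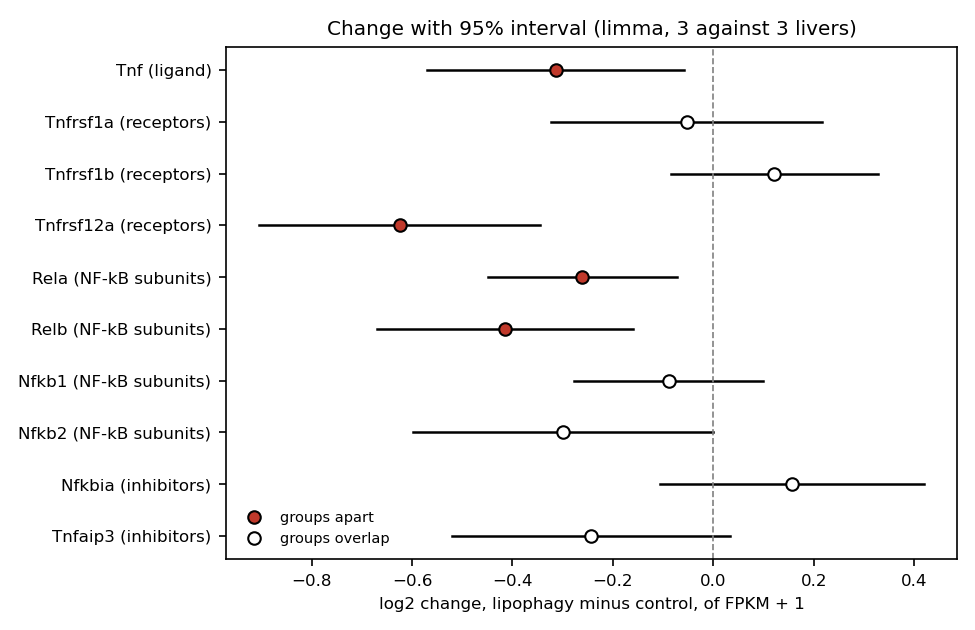
Log2 difference of FPKM + 1, lipophagy minus control, for the 10 genes (points) with 95% intervals (lines) from the fit across all tested genes, 3 against 3 livers. Filled points are genes whose groups do not overlap. Tnfrsf12a lies farthest left at -0.63, and Nfkbia farthest right at 0.16.

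The 4 tested NF-kB subunits were all lower in lipophagy livers, by different amounts. Rela (chr19:5637442-5648134), encoding the main transactivating subunit of the canonical route, was at 16.5, 17.1 and 19.2 FPKM in control and 15.0, 14.3 and 14.2 FPKM in lipophagy livers. The groups were apart and the lipophagy livers were close to each other, with means of 17.6 ± 1.38 and 14.5 ± 0.445 FPKM (SD, n = 3). The log2 difference was -0.26 ± 0.082 (SE, 95% interval -0.45 to -0.072, adjusted p = 0.177). Relb (chr7:19606217-19629438), the transactivating subunit of the non-canonical route, was at 2.81, 2.02 and 2.82 FPKM in control and 1.67, 1.77 and 1.50 FPKM in lipophagy livers. Control 2 was the lowest control liver and still above every lipophagy liver. The means were 2.55 ± 0.459 and 1.65 ± 0.138 FPKM, and the log2 difference was -0.41 ± 0.11 (SE, 95% interval -0.67 to -0.16, adjusted p = 0.148).

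The genes of the precursor subunits were less separated. Nfkb2 (chr19:46300994-46312400), encoding the precursor of p52, was at 4.05, 2.99 and 4.31 FPKM in control and 2.44, 3.24 and 2.93 FPKM in lipophagy livers. Control 2 lay within the lipophagy range, so the groups overlapped, and the log2 difference was -0.30 ± 0.13 (SE, 95% interval -0.60 to -0.0011, adjusted p = 0.255). Its unadjusted p was no longer below 0.05 with no filter or a filter at 0.1 FPKM, with quantile normalization, with the replicate number as a block, or without control 1, control 3, lipophagy 1 or lipophagy 3. Nfkb1 (chr3:135584655-135691969), encoding the precursor of p50, was at 4.90, 4.46 and 4.56 FPKM in control and 4.47, 4.51 and 3.95 FPKM in lipophagy livers. The ranges overlapped, and the difference was -0.088 with a 95% interval of -0.28 to 0.10 (adjusted p = 0.561). It was -0.039 without lipophagy 3 and -0.056 without control 1. The fifth subunit gene, Rel, did not pass the filter.

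The transcripts of the feedback inhibitors IkB-alpha and A20 both gave overlapping groups. Nfkbia (chr12:55489409-55492647) was at 25.1, 20.5 and 21.4 FPKM in control and 23.2, 23.1 and 28.7 FPKM in lipophagy livers. Lipophagy 3 was the highest liver and the other lipophagy livers lay inside the control range, with means of 22.3 ± 2.43 and 25.0 ± 3.20 FPKM (SD, n = 3). The log2 difference was 0.16 ± 0.11 (SE, 95% interval -0.11 to 0.42, adjusted p = 0.462), and over the alternatives it ran from 0.046 with quantile normalization to 0.24 without control 1 (0.057 without lipophagy 3 and 0.10 without control 2). Tnfaip3 (chr10:19000910-19015410) was at 1.65, 1.01 and 1.10 FPKM in control and 0.879, 0.755 and 1.04 FPKM in lipophagy livers. Control 1 was far above the rest, and lipophagy 3 exceeded control 2, so the groups overlapped. The means were 1.25 ± 0.346 and 0.890 ± 0.142 FPKM, and the log2 difference was -0.24 ± 0.12 (SE, 95% interval -0.52 to 0.032, adjusted p = 0.299). Without control 1 the Tnfaip3 difference was -0.12.

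Among the 6 IkB proteins 4 were lower and 2 higher, with a median of -0.17 (-0.050 without lipophagy 1 to -0.31 with a pseudocount of 0.1). Of the 6, 2 were lower at an unadjusted p below 0.05, against 7.97% of all tested genes. The 2 became 3 without lipophagy 3. Bcl3, an atypical nuclear IkB protein that works with p50 and p52 dimers, had the lowest difference on the log2(FPKM + 1) scale, at 15.4, 15.3 and 18.5 FPKM in control and 11.0, 11.2 and 13.02 FPKM in lipophagy livers (log2 difference -0.45 ± 0.10, adjusted p = 0.134). Nfkbia had the highest difference of the 6. Of 11 tested ubiquitin-editing and other feedback genes 6 were lower and 5 higher, with a median of -0.033 that turned to 0.014 with quantile normalization and was -0.15 without lipophagy 3. Otud7b, encoding the deubiquitinase Cezanne, was at 3.40, 3.40 and 3.31 FPKM in control and 2.24, 2.43 and 2.64 FPKM in lipophagy livers (log2 difference -0.35 ± 0.078, adjusted p = 0.134). At the other end was Zfp36, encoding tristetraprolin, which speeds the decay of Tnf mRNA, with 36.3, 39.0 and 28.6 FPKM in control and 52.6, 40.3 and 43.7 FPKM in lipophagy livers (log2 difference 0.39 ± 0.14, adjusted p = 0.204). Both genes had groups that were apart, in opposite directions.

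Pairs of the 10 genes were also compared within each liver, which lessens but does not remove the effect of a liver's scaling, because 1 FPKM was added to each gene. Of 5 log2 ratios of FPKM + 1, 2 had groups apart. Tnfaip3 over Nfkbia was -3.30, -3.42 and -3.41 in control and -3.69, -3.78 and -3.87 in lipophagy livers. The means were -3.38 ± 0.068 and -3.78 ± 0.089 (SD, n = 3), and the difference of -0.40 gave a two-sided exact permutation p of 0.1, the smallest that 3 against 3 livers allow, and 0.25 adjusted over the 5 ratios. Thus the A20 transcript was lower relative to the IkB-alpha transcript in every lipophagy liver, although neither gene alone separated the groups. With a pseudocount of 0.1 the difference was -0.59. Tnfrsf12a over Tnfrsf1a was -1.14, -0.77 and -1.14 in control and -2.03, -1.41 and -1.32 in lipophagy livers. The difference was -0.57, with the same exact permutation p of 0.1 and 0.25 after adjustment, and it was -0.35 without lipophagy 1. The 3 other ratios overlapped. They differed by 0.17 for Tnfrsf1b over Tnfrsf1a (exact permutation p = 0.5; 0.032 without lipophagy 3 to 0.32 without lipophagy 1), by -0.21 for Nfkb2 over Nfkb1 (0.3) and by -0.15 for Relb over Rela (0.2). Nfkb2 over Nfkb1 was -0.11 without lipophagy 1 and -0.12 without control 3, and Relb over Rela was -0.058 without control 1 and -0.25 without control 2.

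**Figure D3:**
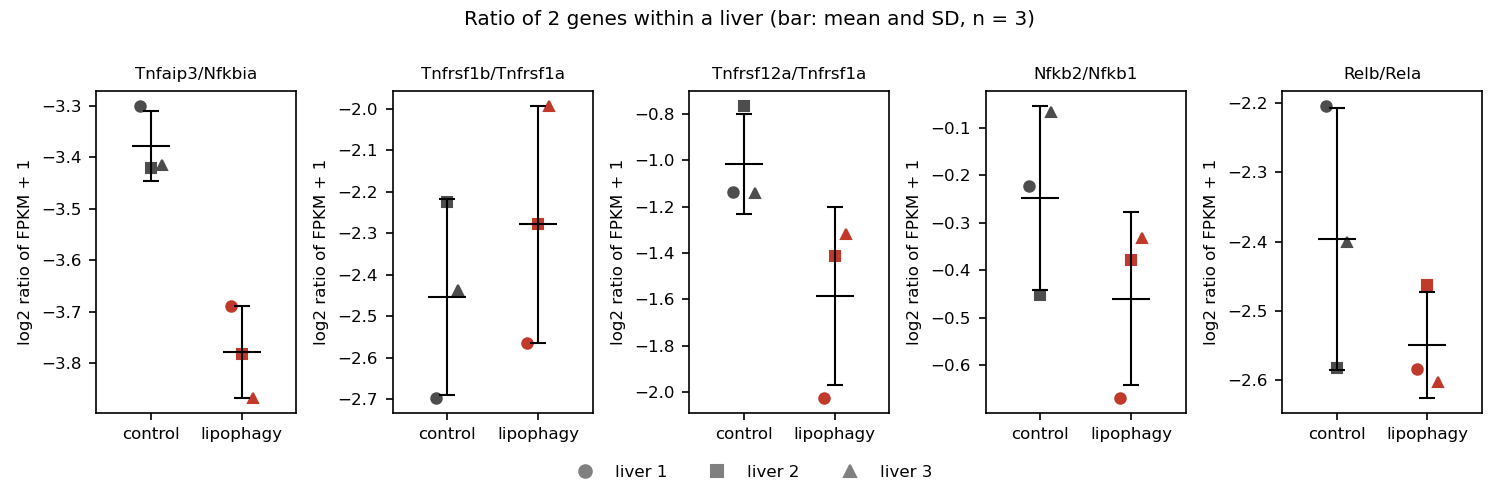
Log2 ratio of the FPKM + 1 of 2 genes within each liver (vertical axes, a scale for each pair) in the 3 control and 3 lipophagy livers, with bars for mean and SD. Tnfaip3 over Nfkbia and Tnfrsf12a over Tnfrsf1a have no overlap between groups, and the other 3 ratios overlap.

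Between receptor and NF-kB, the relay genes were spread on both sides of 0. Of 21 tested receptor adaptors and ubiquitin ligases 10 were lower and 11 higher, with a median of 0.034, and 2 were lower and 2 higher at an unadjusted p below 0.05. These counts are close to the shares over all tested genes, 7.97% lower and 11.5% higher. The median turned to between -0.018 and -0.0013 with quantile normalization and without control 3, lipophagy 1 or lipophagy 3, and the 2 higher became 0 in the first 3 of these. The 2 lower became 3 without control 3, and 1 with the replicate number as a block, with a filter at 0.1 FPKM, with equal medians, or without control 1, control 2, lipophagy 1 or lipophagy 2. Rnf31, encoding the catalytic HOIP subunit of the linear ubiquitin ligase, had the lowest difference (-0.29, adjusted p = 0.150), and Cflar, encoding the caspase-8 inhibitor c-FLIP, the highest (0.28, adjusted p = 0.241). Of 6 IkB kinases and related kinases 4 were lower and 2 higher, with a median of -0.12 (-0.080 without lipophagy 1). Ikbkg, encoding the scaffold NEMO, was at 11.4, 11.8 and 11.0 FPKM in control and 8.19, 9.35 and 8.55 FPKM in lipophagy livers (log2 difference -0.35 ± 0.080, adjusted p = 0.134), with groups apart. Ikbke, the inducible kinase of the family, had the highest difference, 0.43, with overlapping groups (adjusted p = 0.254).

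The listed targets of TNF and NF-kB were mostly lower. This list leaves out genes counted in other lists, among them Nfkbia (0.16) and Tnfaip3 (-0.24), which NF-kB also induces. Of 42 listed, 31 passed the filter, and 27 of these were lower and 4 higher in lipophagy livers, with a median of -0.23 against 0.020 over all tested genes. At an unadjusted p below 0.05, 16 were lower and 1 was higher, and 15 had every lipophagy liver below every control liver. Over all tested genes these shares were 7.97%, 11.5% and 10.8%, and 5234 of 11493 genes were lower. None reached an adjusted p of 0.05. Cx3cl1, in both lower counts, passed the filter only through its control level (mean 0.783 FPKM against 0.424 FPKM in lipophagy livers). Its place in these counts is thus no support for a lower level. Over the alternatives the 16 ranged from 11 (without control 3) to 17. Without lipophagy 2, the liver with high red cell markers, the number was 13. Lcn2, encoding the acute-phase protein lipocalin 2, had the lowest difference on the log2(FPKM + 1) scale, at 133, 169 and 210.4 FPKM in control and 78.2, 93.6 and 122 FPKM in lipophagy livers (log2 difference -0.79 ± 0.20, adjusted p = 0.139). On mean FPKM Ier3, a low gene, was lower still, at 40.6% of control against 57.4% for Lcn2. Cebpb, encoding an acute-phase transcription factor, had the highest on the log2 scale, at 0.22 with overlapping groups. Further targets, named after their values were seen, were the early response gene Ier3 (-0.78, adjusted p = 0.0802), the monocyte chemokine Ccl2 (-0.76), Il1b (-0.55, adjusted p = 0.0915) and the adhesion molecule Icam1 (-0.33). Sod2, encoding the mitochondrial superoxide dismutase, was the 1 target higher at an unadjusted p below 0.05 (0.21), a call that was lost with quantile normalization, with the replicate number as a block and without any 1 liver except lipophagy 2.

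**Figure D4:**
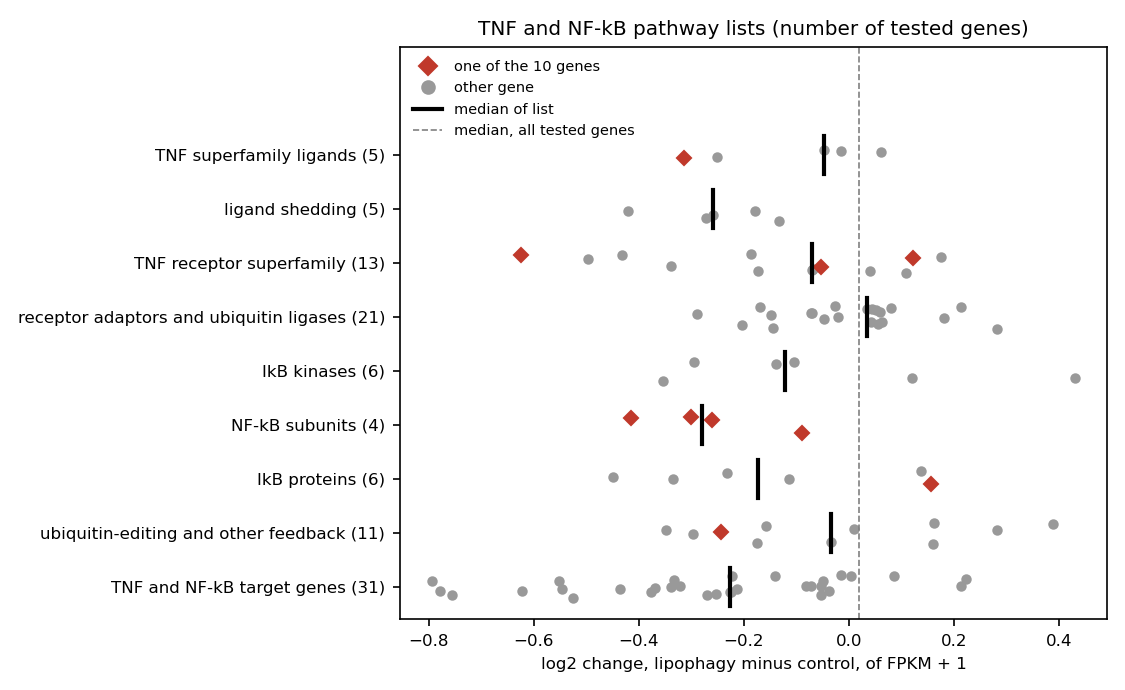
Log2 difference of FPKM + 1, lipophagy minus control, of every tested gene in 9 lists of the TNF and NF-kB pathway, with the number of tested genes in brackets. Diamonds are the 10 genes, circles other genes, black bars list medians, and the dashed line the median of all tested genes at 0.020. The medians of the target list (-0.23), the subunits (-0.28) and the shedding genes (-0.26) lie farthest left.

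Over all tested genes with a promoter window, the median log2 difference was -0.014 for the 1053 with the kappa-B consensus and 0.026 for the 7766 without it. Lipophagy livers were all lower for 14.1% of genes with it and 10.4% without, and all higher for 11.0% and 16.3%. In the target list the consensus was held by 13 of 30 genes with a window, in the IkB list by 4 of 5, and in the feedback list by 5 of 10. Among tested targets, 10 with the consensus had a median of -0.32 and 13 without it had one of -0.21, so lower values were seen in both.

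The genes whose pattern over the 6 livers was most like that of Tnf were sought among 152 tested genes of the pathway and marker lists, by the mean absolute difference of log2(FPKM + 1) centred on each gene's mean. They were Il15 (0.070), the macrophage receptor gene Csf1r (0.070), Rhbdf2 (0.080), N4bp1 (0.087) and Timp3 (0.090). For Tnfrsf12a they were Col1a1, the main fibrillar collagen gene (0.10), Il1b (0.11), Cxcl10 (0.12), Csf1 (0.13) and Eda2r (0.13). All 10 of these neighbours had lower means in lipophagy livers, which a close match to Tnf or Tnfrsf12a largely fixes.

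Markers of the liver's cell types are given beside these results, since TNF and many targets come from leukocytes and Fn14 from several cell types. Of 13 tested macrophage markers 8 were lower and 5 higher, with a median of -0.18 and a summed level of 685 to 895 FPKM in control and 667 to 823 FPKM in lipophagy livers. Csf1r, at 15.6, 16.4 and 16.2 FPKM in control and 12.7, 12.4 and 13.9 FPKM in lipophagy livers, had groups apart and lower, as did Cd68 and the monocyte markers Ccr2 and Itgam. Vsig4, a marker of resident macrophages, was the 1 macrophage marker apart and higher, and Adgre1 overlapped. All 3 tested neutrophil markers were lower, with a summed level over the 9 in the table of 19.2 to 33.4 FPKM in control and 16.9 to 20.0 FPKM in lipophagy livers. Stellate cell markers were lower for 8 of 9 (150 to 164 FPKM against 121 to 154 FPKM), 5 of them with groups apart. Bile duct markers were lower for 5 of 5 (137 to 247 FPKM against 92.0 to 196 FPKM), all with overlapping groups. Over all tested genes 5234 of 11493 were lower, and 10.8% were apart and lower. Hepatocyte markers were higher for 9 of 10, and the hepatocyte gene Alb was above every control liver in each lipophagy liver. T and NK cell markers summed to 5.98 to 8.14 FPKM in control and 5.64 to 6.93 FPKM in lipophagy livers, B cell markers to 2.42 to 4.48 and 2.2 to 3.61 FPKM, and endothelial markers to 24.9 to 31.1 and 28.6 to 45.4 FPKM. The part of these cell types in the lower levels of Tnf, Tnfrsf12a, Rela, Relb and the target genes was not tested.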

How the data were processed

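Liver RNA of 3 control and 3 lipophagy mice was sequenced as 100-base read pairs from poly(A) libraries (TruSeq stranded mRNA). The authors deposited 1 table of FPKM values per gene symbol and liver, already scaled to transcript length and mapped fragments. The submitters' processing notes name TopHat2 2.0.13, Bowtie2 2.2.3, SAMtools 0.1.19, Cufflinks 2.2.1 and mm10, and the annotation is not given in the sources used here. A count model does not apply to FPKM, and FPKM is relative, so a change in abundant genes moves all others. Groups and replicate numbers came from the labels.

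After a log2(FPKM + 1) transform, limma 3.58.1 was run on the 11493 genes whose mean over all livers reached 0.5 FPKM (R 4.3.3; moderated variance, intensity trend, no covariate, two-sided), with p-values adjusted over all of these by Benjamini-Hochberg and called below 0.05. An exact permutation test, two-sided, compared the ratios within a liver. Depth was estimated from the smallest steps in genes of over 500 bases with 1 GENCODE M21 transcript, less 150 bases, and counting errors cover counting only. Python 3.11.15 was used with numpy 2.4.6, pandas 2.3.3, scipy 1.17.1 and matplotlib 3.10.9. The procedure was tested on simulated data. Gene positions and promoter windows are those of RefSeq for GRCm38.p6, matched by symbol.

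The 10 genes, the pathway and marker lists and the tests were chosen with earlier results of these data known. Genes named were the 10, in each list the tested genes with the largest rise and fall and any past the threshold, and the 5 most like Tnf and Tnfrsf12a. Names outside this rule were picked with their values in view, apart from ligands, receptors and cell type markers given as background to one of the 10. The alternatives changed the pseudocount (0.1, 0.5), the minimum mean FPKM (none, 0.1, 1), the scaling (quantile, equal medians) or the variance trend (none), added the replicate number as a block, or left out each liver in turn.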

Additional observations from a re-analysis of the deposited data

How the results depend on the processing

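None of the 10 genes passed an adjusted p of 0.05 in any of the 15 alternatives. Of 149 single-gene values under alternatives, 147 kept their direction, and Tnfrsf1a turned in 2, with a leave-one-out range of -0.15 to 0.034 (0.020 without control 1 and 0.034 without lipophagy 3). The number of the 10 lower at an unadjusted p below 0.05 was 5, and it became 3 with quantile normalization and 2 to 5 when a liver was left out (2 without control 3). Relb and Tnfrsf12a were among them in all 15 alternatives, and the median of the genes tested lay between -0.33 and -0.19. The 5 ratios within a liver kept their direction in all 9 alternatives each. Among all genes 3 were called, 1 with no filter on low FPKM, and 1 to 11 when a liver was left out (7 without control 2, 1 without control 3, 5 without lipophagy 2 and 11 without lipophagy 3). With the replicate number as a block 43 genes were called, none of the 10, and 4 of the 10 were lower at an unadjusted p below 0.05 (not Nfkb2). Deviations of same-numbered livers correlated at 0.25, 0.23 and -0.057 across genes, and those of the other pairs at -0.39 to 0.25. Whether same-numbered livers share more than a number was not tested. With quantile normalization 54.7% of the genes at an unadjusted p below 0.05 were lower (899 lower and 745 higher), against 40.8% in the reported fit (916 and 1327) and 36.5% to 49.0% under the other alternatives, and the Tnf groups overlapped. Tnf has no value with a filter at a mean of 1 FPKM. The cause of these shifts was not tested. Depth limits Tnf most, with 8.94 estimated fragments in 1 liver.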
